A study of Mus musculus with 6 samples.

Results

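The genes of the mitochondrial protein import machinery and of MICOS, the complex that shapes cristae junctions, were taken as one module. A gene belonged to it when the array's probe annotation matched a RefSeq mouse symbol that starts with Tomm or Timm followed by a digit, or 1 of 15 further named symbols: Immt, Chchd3, Chchd4, Chchd6, Samm50, Mtx1, Mtx2, Pam16, Dnajc19, Grpel1, Hspd1, Hspe1, Hspa9, Pmpca and Pmpcb. The rule found 42 symbols in RefSeq, of which 41 had a probe, among 23462 genes with a match on the array. These 41 genes were read by 64 probes. Timm29-ps1, a pseudogene, had no probe. Tomm6os, a long noncoding RNA named for the strand opposite Tomm6, met the rule through its name alone, so the module holds 40 protein-coding genes.

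The data are 6 one-colour Agilent mouse expression arrays of BV2, an immortalised mouse microglial cell line, and every sample had received lipopolysaccharide (LPS), the bacterial endotoxin. There were 3 arrays of BV2 cells without PGC-1α overexpression (control) and 3 of BV2 cells with it (PGC-1α arrays). The study's cell culture methods, which do not name the arrays, give 500 ng/ml LPS for 6 h, a lentiviral vector with a ubiquitin promoter and an EGFP and puromycin cassette for the overexpression, puromycin selection of the overexpressing cells and a negative-control virus. No label says whether the 3 arrays of a group came from separate cultures or infections, so p-values measure the spread between these arrays only. The comparison asks whether import and cristae genes differed between LPS-treated cells with and without extra PGC-1α, a coactivator of nuclear genes for mitochondrial proteins.

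Nearly all mitochondrial proteins are made in the cytosol and imported. The TOM complex of the outer membrane receives precursors, the SAM complex inserts barrel-shaped proteins into that membrane, and the small TIM chaperones escort hydrophobic precursors across the intermembrane space. The TIM23 complex passes precursors with a cleavable presequence through the inner membrane, and the TIM22 complex inserts metabolite carriers. An Hsp70 motor pulls chains into the matrix, the mitochondrial processing peptidase trims them and the Hsp60 and Hsp10 chaperonin folds them. MICOS holds the inner membrane at the necks of cristae and contacts the outer membrane through SAM. PGC-1α has no DNA-binding domain of its own and acts with factors such as the nuclear receptor ERRα, NRF1 and the ETS factor GABP.

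Values are log2 signals relative to the 75th percentile of each array, so 0 is the level of that percentile and 1 unit is a doubling, and a fold change is the PGC-1α mean minus the control mean on this scale. A gene was read through its brightest tested probe. The scanner's 75th percentile lay between 1617 and 1893 intensity units in the controls and between 856 and 1268 with PGC-1α, so that dividing by it raised the PGC-1α arrays more. The targeted gene did not settle the labels. The first of the 2 Ppargc1a probes read -6.21, -6.37 and -7.71 in the controls and -5.70, -5.28 and -5.90 with PGC-1α, a difference of 1.14 (adjusted p = 0.0676 in a fit without the filter on dim probes), and the second differed by 0.26. In neither group did either probe clear background on every array. Of 10 microglia and macrophage markers, 9 were above background on all arrays, and Cx3cr1 was at background on every array. Of the 9, 5 were higher on the PGC-1α arrays (Cd68, Csf1r, Fcer1g, Itgam and Tyrobp) and none lower, beside 36.9% and 19.6% of all genes. After quantile normalization none was higher and Adgre1 was lower, beside 21.7% and 20.9% of all genes. The summed level of the 9 ran from 93.5 to 99.6 on the control and from 136 to 159 on the PGC-1α arrays. It is given in multiples of the array's 75th percentile. Of 12 astrocyte, neuron and oligodendrocyte markers, 10 were tested. Of these, 5 were higher (Aldh1l1, Aqp4, Rbfox3, Snap25 and Mag) and none was lower, where 36.9% of all genes were higher. After quantile normalization 4 of the 10 were higher, where 21.7% of all genes were. Rbfox3 cleared background on 2 control and 3 PGC-1α arrays, and so passed the filter on dim probes only through the group where it was higher. Its call in either scaling was thus partly set by that filter. Slc1a2 and Syt1 did not pass the filter on dim probes. The summed level of the 10 ran from 23.3 to 29.1 on the control and from 36.8 to 50.2 on the PGC-1α arrays, and without Snap25 from 1.36 to 1.51 and from 1.68 to 1.90. Nearly all of that sum was thus 1 Snap25 probe, which was at 0.11 (adjusted p = 0.493) after quantile normalization, and the other Snap25 probe was not well above background on any array. Whether other cells or stray probe signal had a part in the module's values was not tested.

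With 75th percentile scaling, 24 of the 40 tested members were higher on the PGC-1α arrays and 1, Tomm40l, was lower, at an adjusted p under 0.05 in the limma fit over all 17062 tested genes. Of all tested genes, 36.9% were higher and 19.6% lower. In bulk RNA a change in the make-up of the cells and a change in RNA per cell cannot be told apart. The members' median log2 fold change was 0.44 and that of all genes 0.23, which leaves 0.22 above the median of the array. Of the 37 members with a value on all 6 arrays, 27 had every PGC-1α array above every control array (73.0%) and 1 had every PGC-1α array below, where 42.6% and 22.9% of all genes with complete values did. Centred on each gene's own mean, the members' median relative to that of all genes was -0.10, -0.14 and -0.07 in the controls and 0.09, 0.09 and 0.11 with PGC-1α. The 3 arrays of each group therefore lay apart from those of the other by more than they differed among themselves. The members' median above that of all genes was 0.24 within the first slide, which held 4 of the arrays, and 0.11 between the 2 arrays of the second.

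Quantile normalization, which gives all 6 arrays one distribution of signals, removed nearly all of this. After it 2 members were higher, Timm21 and Timm8a2, and Tomm40l alone was lower, against 21.7% of all genes higher and 20.9% lower. The members' median was then 0.07 and that of all genes 0.03. In 33 of 40 members the quantile-normalized fold change lay within 0.25 of 0, and 31 of 40 kept the sign they had under 75th percentile scaling. The members are mostly bright: 31 of the 40 were among the 4266 genes of the brightest of 4 equal classes of mean signal. In that class the median fold change of all genes was 0.35 and 45.7% were higher, and the members' median was 0.46 with 21 higher. After quantile normalization the same class had a median of -0.0049 over all genes and 0.04 over its 31 members, none of which was called. The cause of the shift of bright probes was not tested, and every "higher" below is a call under 75th percentile scaling unless quantile normalization is named. Counts by role below were not tested against the share of all genes higher, which was 36.9%, or 45.7% in the brightest class.

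**Figure D1:**
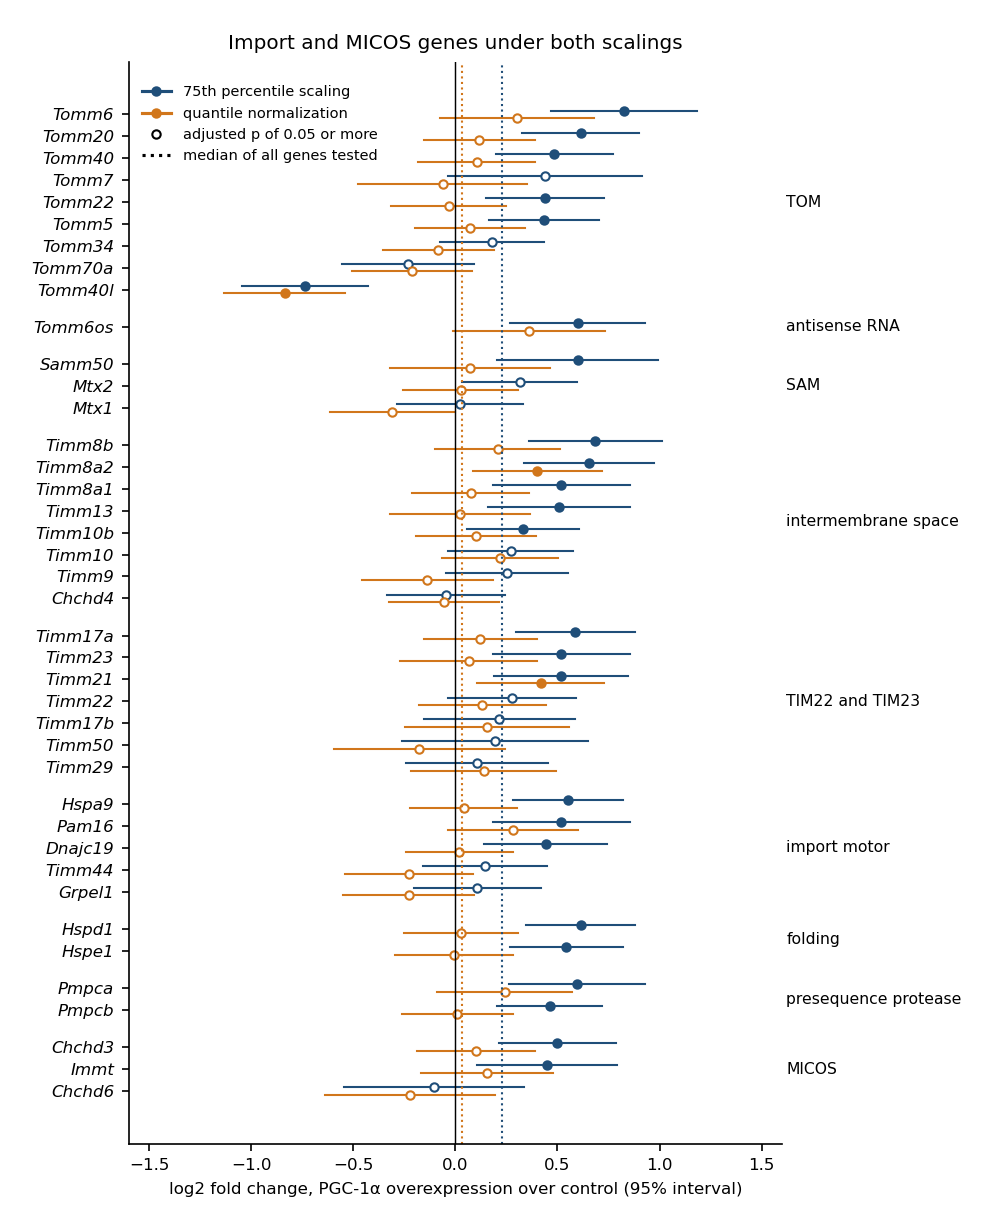
Log2 fold change of each tested member (x axis, PGC-1α over control, with 95% intervals), ordered by role, under 75th percentile scaling (blue) and quantile normalization (orange). Filled points passed an adjusted p of 0.05, and dotted lines mark the medians of all tested genes, 0.23 and 0.03. Blue points lie mostly right of 0, orange points lie around 0, and Tomm40l is far to the left in both. The role labelled presequence protease is that of the processing peptidase genes Pmpca and Pmpcb.

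**Figure D2:**
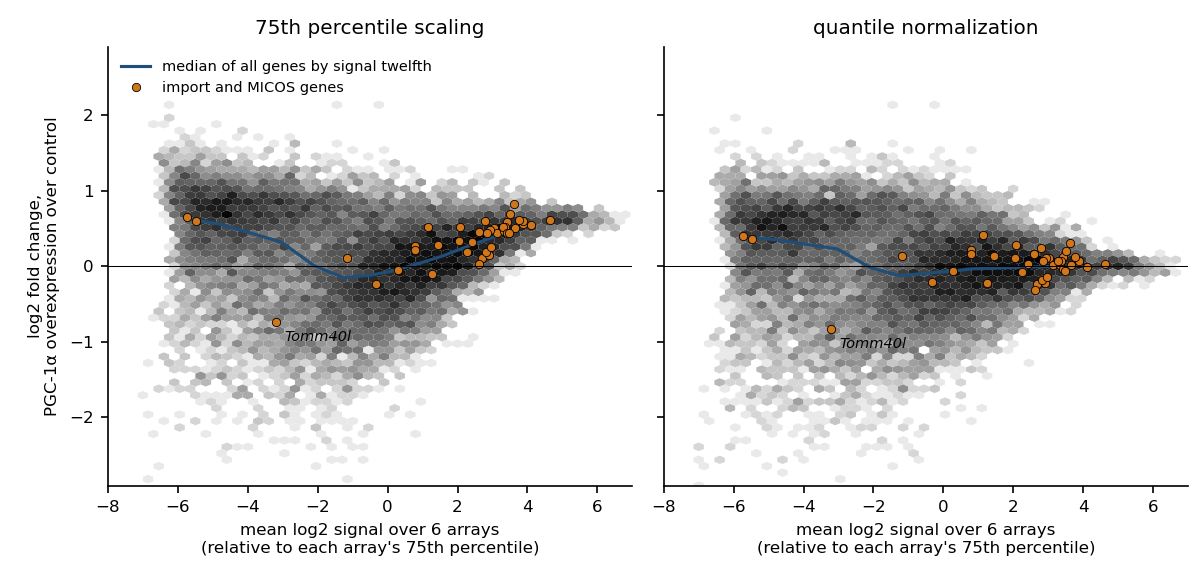
Log2 fold change (y axis) against the mean log2 signal over the 6 arrays (x axis) for all tested genes (grey, darker where more genes lie, on a log colour scale), with the members in orange and the median of all genes in 12 signal classes as a blue line. With 75th percentile scaling the blue line climbs with signal above the middle of the range and the members lie along it. After quantile normalization the bright end is level at 0 and the members lie there.

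Of the 9 tested TOM genes, 5 were higher, Tomm40l was lower and 3 did not pass. Tomm40 encodes the channel through which precursors cross the outer membrane. Tomm40 read 2.78, 2.67 and 2.64 in the controls and 3.07, 3.32 and 3.15 with PGC-1α. The groups did not overlap, and the fold change was 0.48 (SE 0.12, adjusted p = 0.0123), or 0.10 (adjusted p = 0.532) after quantile normalization. Its other 2 probes gave 0.38 and 0.47 and did not pass. Tomm40l encodes a second, related channel protein. Tomm40l read -2.92, -2.87 and -2.71 in the controls and -3.64, -3.39 and -3.67 with PGC-1α (RefSeq NM_001037170). Every PGC-1α array was thus below every control array. The fold change was -0.74 (SE 0.13, adjusted p = 0.00308), a level 1.67-fold lower. Its second probe read -3.74, -3.90 and -4.43 in the controls and -4.74, -4.90 and -4.84 with PGC-1α, again without overlap, and differed by -0.80 (adjusted p over probes = 0.00864). Quantile normalization left Tomm40l at -0.84 (95% interval -1.13 to -0.54, adjusted p = 0.00185). Of all genes in its signal class, the second dimmest of the 4, 30.8% were lower, or 29.9% after quantile normalization. Tomm40l was the only member called in the same direction under all 17 alternatives computed gene by gene. Its fold changes there lay between -0.85 and -0.35, with adjusted p no higher than 0.043. On the 4 arrays of the first slide its fold change was -0.62 (adjusted p = 0.0216), and between the 2 arrays of the second, which allow no test, it was -0.97. No factor common to an array can alter the log2 ratio of Tomm40 to Tomm40l within it, but a shift that depends on signal can. The ratio was 1.22 higher on the PGC-1α arrays, with no overlap between groups, and 0.94 higher after quantile normalization. Under 75th percentile scaling the median fold change of all genes was 0.35 in the brightest signal class, which held Tomm40. In the class of Tomm40l it was 0.04.

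Tomm20, Tomm22 and Tomm70a are the receptors that bind precursors. Tomm20 read 3.48, 3.35 and 3.55 in the controls and 4.04, 4.19 and 3.98 with PGC-1α, a fold change of 0.61 (SE 0.12, adjusted p = 0.00474). The groups did not overlap. Its 2 other probes gave 0.28 and 0.27 and did not pass, and after quantile normalization the 3 probes lay between -0.20 and 0.12, so the size of the Tomm20 difference rested on which probe was read. Tomm22 was higher at 0.44 (adjusted p = 0.0191) with a second probe at 0.30 that did not pass. Tomm70a, which receives carrier precursors from cytosolic chaperones, did not pass at -0.23 (adjusted p = 0.191) and was the only other of the 9 tested TOM genes with a negative value. Tomm70a read -0.28, -0.31 and -0.05 in the controls and -0.47, -0.59 and -0.26 with PGC-1α, with the control array 3 and PGC-1α array 3 highest in their groups. Tomm5, Tomm6 and Tomm7 are small subunits that assemble around the channel. Tomm6 had the largest fold change of the module, 0.83 (SE 0.15, adjusted p = 0.0042), from 3.07 and 3.17 on the 2 control arrays with a usable spot and 3.80, 3.95 and 4.09 on the PGC-1α arrays. Tomm5 was higher at 0.44 (adjusted p = 0.0148), and Tomm7 had 0.44 (adjusted p = 0.0993) with no value on PGC-1α array 3, whose spot was flagged as an outlier. Tomm7 passed when slides were blocked, at 0.60 (adjusted p = 0.0136), and with the replicate block (adjusted p = 0.0145). With either block control array 3 had no partner, so that 0.60 was the difference on the 4 arrays of the first slide. Control array 3, at 3.63, was the highest of the controls for Tomm7. Tomm34, a cytosolic cochaperone of import, had 0.18 (adjusted p = 0.192). The paralogue Tomm20l cleared background on 2 controls and on no PGC-1α array, and so was not tested. Its values were -5.93, -6.71 and -6.02 in the controls and -6.83, -7.27 and -7.31 with PGC-1α, without overlap. The noncoding Tomm6os was near background at -5.86, -5.70 and -5.80 in the controls and -5.39, -5.21 and -4.96 with PGC-1α. Its fold change was 0.60 (adjusted p = 0.00903), or 0.36 (adjusted p = 0.108) after quantile normalization. Genes in the dimmest of the 4 signal classes as a whole had a median of 0.54 before and 0.34 after.

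SAM held 1 higher member of 3 (33.3%, beside 36.9% of all genes). Samm50 encodes the barrel that folds new barrel proteins into the outer membrane. Samm50 read 3.70, 3.64 and 3.41 in the controls and 4.08, 4.51 and 3.96 with PGC-1α. The groups did not overlap, the fold change was 0.60 (SE 0.17, adjusted p = 0.0192) and after quantile normalization it was 0.07. Mtx1 and Mtx2 encode the metaxins on its cytosolic face. Mtx1 read 2.72, 2.56 and 2.53 in the controls and 2.53, 2.81 and 2.53 with PGC-1α, the smallest difference of the module at 0.02 (adjusted p = 0.898), and its second probe was at -0.08. Mtx1 went to -0.31 (adjusted p = 0.0935) after quantile normalization and was called lower on the authors' own processed values, at -0.33 (adjusted p = 0.0389), where 22.4% of all genes were lower and 23.2% higher. Mtx2 had 0.31 (adjusted p = 0.0559) and passed with the slide as a block (adjusted p = 0.0494). The within-array log2 ratio of Samm50 to Mtx1 was 0.58 higher on the PGC-1α arrays, and 0.38 higher after quantile normalization.

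Of the 8 genes of the intermembrane space, 5 were higher and none lower. Chchd4 encodes the oxidoreductase, known as Mia40 in yeast, that traps small TIM proteins by forming their disulfides. Chchd4 read 0.30, 0.17 and 0.47 in the controls and 0.27, 0.24 and 0.29 with PGC-1α, so the groups overlapped and the fold change was -0.05 (adjusted p = 0.767). Its 95% interval ran from -0.34 to 0.24. Timm8b had the largest fold change here. Timm8b read 3.16, 3.24 and 3.10 in the controls and 3.78, 4.09 and 3.69 with PGC-1α. Control and PGC-1α arrays did not overlap, and the fold change was 0.69 (SE 0.14, adjusted p = 0.00503) or 0.21 after quantile normalization. Timm8a1 and Timm13, subunits of one chaperone, had 0.52 (adjusted p = 0.0175) and 0.51 (adjusted p = 0.0221), and their ratio within an array differed between the groups by 0.01. Timm9 and Timm10, which form the main carrier chaperone together, did not pass at 0.25 (adjusted p = 0.126) and 0.27 (adjusted p = 0.113), and Timm10b, the subunit that docks it on TIM22, was higher at 0.33 (adjusted p = 0.0426). Timm8a2 was dim, with -5.88, -6.09 and -6.19 in the controls and -5.27, -5.38 and -5.54 with PGC-1α. It was 1 of 2 members called higher in both scalings, with 0.66 (adjusted p = 0.00545) before and 0.40 (adjusted p = 0.0462) after quantile normalization, and genes in the dimmest of the 4 signal classes as a whole had a median of 0.54 before and 0.34 after.

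In TIM22 and TIM23, 3 of 7 members were higher (42.9%, beside 36.9% of all genes and 45.7% of the brightest class) and none lower. Timm23 and the paired Timm17 proteins form the core of the presequence translocase. Timm23 read 3.10, 3.11 and 3.10 in the controls and 3.81, 3.71 and 3.36 with PGC-1α. The groups did not overlap, although the third PGC-1α array stood well below the other two, and the fold change was 0.52 (SE 0.15, adjusted p = 0.0173). Timm17a had the largest value of the group. Timm17a read 3.17, 3.01 and 3.23 in the controls and 3.62, 3.83 and 3.71 with PGC-1α, a fold change of 0.59 (SE 0.13, adjusted p = 0.00599) that was 0.12 after quantile normalization. Its paralogue Timm17b had 0.22 (adjusted p = 0.279). Timm21, which links TIM23 to TOM and to the respiratory chain, was the other member called higher in both scalings. Timm21 read 0.73, 0.85 and 1.08 in the controls and 1.54, 1.27 and 1.40 with PGC-1α. The groups did not overlap, with a fold change of 0.52 (SE 0.14, adjusted p = 0.0161). After quantile normalization its log2 signals were 11.20, 11.33 and 11.46 in the controls and 11.88, 11.61 and 11.76 with PGC-1α, again apart, with a fold change of 0.42 (adjusted p = 0.037). It was also called on the authors' processed values, at 0.39, and after normexp with quantile normalization, at 0.56, but not with the median as the scale (0.41, adjusted p = 0.051), nor in the fits without control replicate 1, control replicate 2 or PGC-1α replicate 1, where it was between 0.44 and 0.50. Timm50, the receptor of TIM23, had 0.19 (adjusted p = 0.425) and PGC-1α array 2 far above the rest. Timm22, the channel of the carrier translocase, had 0.28 (adjusted p = 0.113), and Timm29, a subunit of the same complex, had the lowest fold change of the group. Timm29 read -1.06, -1.41 and -1.20 in the controls and -1.18, -1.27 and -0.91 with PGC-1α, and the groups overlapped at 0.11 (adjusted p = 0.57).

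Of the import motor, 3 of 5 members were higher. Hspa9 encodes mortalin, the matrix Hsp70 that pulls precursors in. Hspa9 read 3.56, 3.57 and 3.68 in the controls and 4.10, 4.23 and 4.14 with PGC-1α. The groups were apart by more than their spread, at 0.55 (SE 0.12, adjusted p = 0.00548), yet the quantile-normalized value was 0.04. Grpel1, the exchange factor that resets Hspa9, did not share this. Grpel1 read 2.68, 2.70 and 2.52 in the controls and 2.79, 2.88 and 2.55 with PGC-1α, and the groups overlapped at 0.11 (adjusted p = 0.517). The within-array log2 ratio of Hspa9 to Grpel1 was 0.44 higher on the PGC-1α arrays without overlap, and 0.27 higher after quantile normalization. Timm44, which tethers Hspa9 to the channel, had 0.14 (adjusted p = 0.373). Pam16, a J-like regulator of the motor, was higher at 0.52 (adjusted p = 0.0172). The J-domain regulator Dnajc19 was higher at 0.44 (adjusted p = 0.0215), but its 2 other probes gave 0.08 and 0.35 and did not pass.

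Hspd1 and Hspe1, the matrix chaperonin Hsp60 and its lid Hsp10, lie head to head and share the stretch between their start sites. Part of that stretch is shown because it holds letters for 2 of the factors PGC-1α works with. Whether these letters had a part in either gene's difference was not tested. The 120 bases before the Hspe1 start site in RefSeq (build GRCm38.p6, chr1:55088028-55088147, plus strand) have the motif of the nuclear receptor ERRα (AAGGTCA) and 2 overlapping ETS matches (CCGGAAG, on either strand) in capitals:
Hspe1: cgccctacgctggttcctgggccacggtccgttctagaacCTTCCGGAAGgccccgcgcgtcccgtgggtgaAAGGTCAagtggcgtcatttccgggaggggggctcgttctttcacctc
Hspd1 read 4.25, 4.37 and 4.37 in the controls and 4.90, 5.02 and 4.91 with PGC-1α. Hspe1 read 3.74, 3.92 and 3.83 in the controls and 4.34, 4.47 and 4.32 with PGC-1α. Neither gene's groups overlapped, with fold changes of 0.61 (SE 0.12, adjusted p = 0.00369) for Hspd1 and 0.54 (SE 0.12, adjusted p = 0.00679) for Hspe1. Their log2 ratio within an array differed between the groups by 0.07, without overlap, the standard deviations of that ratio being 0.05 on the control and 0.02 on the PGC-1α arrays. The other probes were higher too, at 0.58 for Hspd1 and at 0.61 and 0.70 for Hspe1. After quantile normalization Hspd1 was at 0.03 and Hspe1 at -0.01, whereas 1 other Hspe1 probe remained higher at 0.59 (adjusted p over probes = 0.0107).

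Pmpca and Pmpcb encode the regulatory and the catalytic subunit of the mitochondrial processing peptidase, and both were higher. Pmpca read 2.69, 2.27 and 2.52 in the controls and 3.05, 3.20 and 3.03 with PGC-1α. Pmpcb read 3.10, 3.04 and 3.16 in the controls and 3.55, 3.58 and 3.55 with PGC-1α. Neither gene's groups overlapped. The fold changes were 0.60 (SE 0.14, adjusted p = 0.0095) and 0.46 (SE 0.11, adjusted p = 0.00964), and 0.24 and 0.01 after quantile normalization.

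In MICOS, 2 of 3 members were higher. Immt encodes mitofilin, the core subunit Mic60. Immt read 2.35, 2.36 and 2.58 in the controls and 2.86 and 2.89 with PGC-1α, where the spot of PGC-1α array 2 was flagged as an outlier and gave no value. The fold change was 0.45 (SE 0.15, adjusted p = 0.0344). It did not pass with the replicate block, at 0.41 (adjusted p = 0.0622), nor without control replicate 1 or 2, at 0.41 in both. Its second probe had a value on all arrays, 2.06, 2.06 and 2.23 in the controls and 2.40, 2.74 and 2.48 with PGC-1α without overlap, and gave 0.42 (adjusted p over probes = 0.034). The probes were at 0.15 and 0.14 after quantile normalization. Chchd3, the Mic19 subunit that bridges Immt to Samm50, was higher at 0.50 (SE 0.13, adjusted p = 0.0109). Chchd3 read 2.72, 2.68 and 2.94 in the controls and 3.29, 3.24 and 3.30 with PGC-1α. Its paralogue Chchd6, the Mic25 subunit, was not. Chchd6 read 1.21, 1.16 and 1.56 in the controls and 0.96, 1.08 and 1.57 with PGC-1α, which overlapped at -0.11 (adjusted p = 0.657). Array 3 of either group, which lay on a second slide, was the highest of its group for Chchd6. The within-array log2 ratio of Chchd3 to Chchd6 was 0.61 higher on the PGC-1α arrays, with no overlap, and 0.32 higher after quantile normalization.

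**Figure D3:**
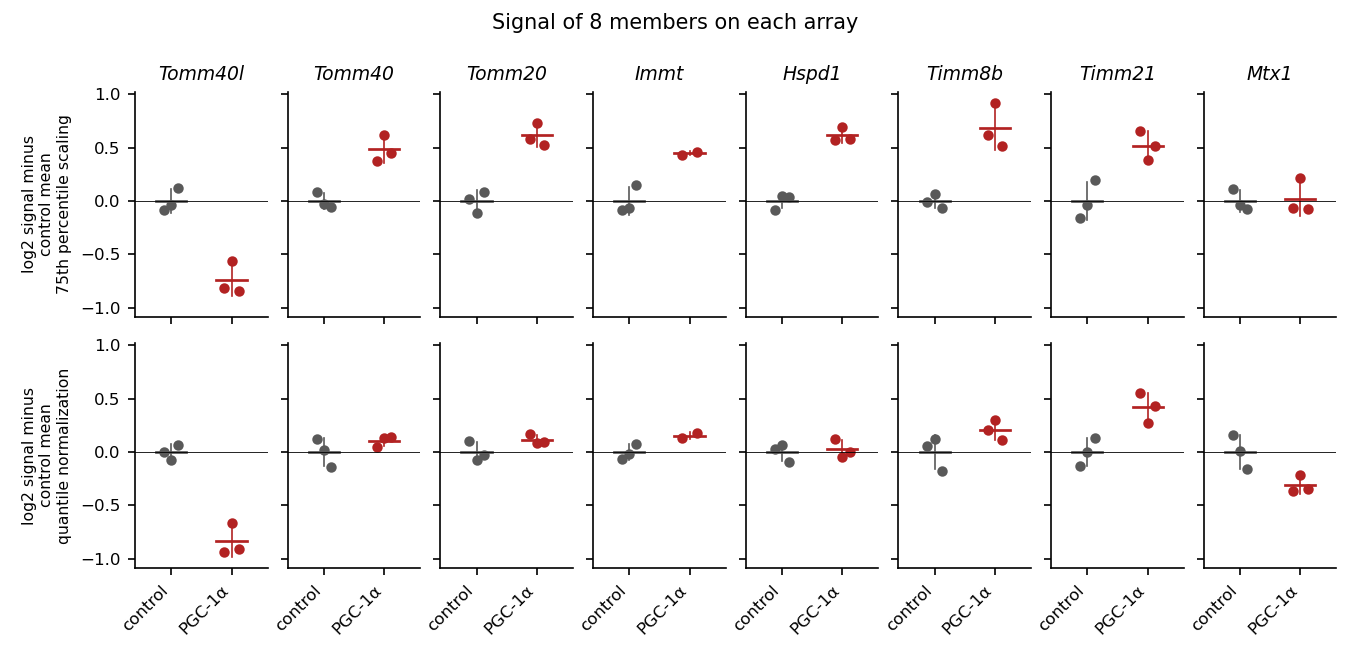
Log2 signal of 8 members on each array minus the control mean (y axis), for the 3 control (grey) and 3 PGC-1α arrays (red), under 75th percentile scaling (top) and quantile normalization (bottom). Points are arrays, long bars are group means and thin lines span 1 standard deviation. Tomm40l is low on all PGC-1α arrays in both rows, Timm21 is high in both, and Tomm40, Tomm20, Immt and Hspd1 come close to the control level in the bottom row.

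Of the 64 probes, 63 were tested, 31 were higher and 2, both of Tomm40l, were lower, beside 31.4% of all tested probes higher and 21.3% lower. Among the 19 genes with more than 1 tested probe, 18 had all probes on one side of 0, Mtx1 being the exception, and none had probes called in opposite directions. In 7 of them every probe was called: Chchd3, Hspa9, Hspd1, Hspe1, Immt, Tomm5 and Tomm40l. In 7 others no probe was, and in Dnajc19, Timm10b, Tomm20, Tomm22 and Tomm40 the probes were split between called and not called. The median distance between the lowest and highest probe of a gene was 0.12, and it was widest for Dnajc19 (0.36) and Tomm20 (0.34).

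**Figure D4:**
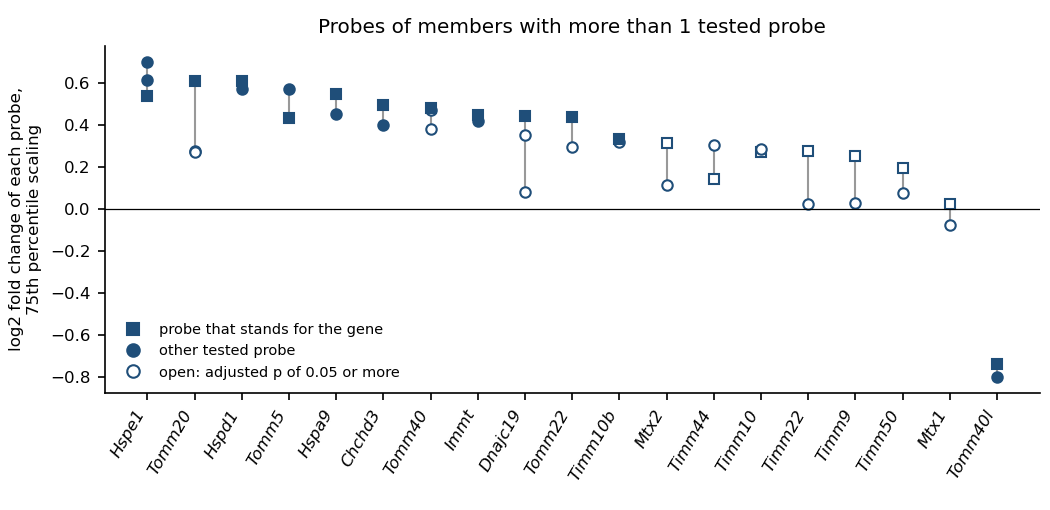
Log2 fold change (y axis, 75th percentile scaling) of each tested probe for the 19 members with more than 1 tested probe (x axis). Squares are the probes that stand for the gene, circles other probes, and open symbols did not pass an adjusted p of 0.05 over all tested probes. The 2 Tomm40l probes lie together near -0.8, and the probes of Tomm20 and Dnajc19 are spread widest.

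A list of 25 other import and cristae genes, all tested, was read the same way. Of these, 10 were higher and 3 lower, beside 36.9% and 19.6% of all genes, and their median was 0.31. After quantile normalization 1 was higher and 3 were lower, beside 21.7% and 20.9% of all genes, and the median was 0.05. The 2 lowest values belonged to genes whose products sit with SAM and MICOS. Dnajc11, a J-domain protein of the bridge between both membranes, read 0.92, 0.65 and 0.32 in the controls and -0.56, -0.09 and -0.63 with PGC-1α. The groups did not overlap, at -1.06 (SE 0.20, adjusted p = 0.00384) and -1.07 (adjusted p = 0.00709) after quantile normalization, and its second probe gave -1.24. Mtx3, the third metaxin, read -2.46, -1.91 and -1.97 in the controls and -3.00, -3.65 and -2.92 with PGC-1α, a fold change of -1.08 (SE 0.23, adjusted p = 0.00572). Its second probe was higher instead, at 0.56 (adjusted p over probes = 0.017), so the direction for Mtx3 depends on the probe. Agk, a lipid kinase that also belongs to TIM22, was lower at -0.46 (adjusted p = 0.0229), with -0.43 (adjusted p = 0.0584) after quantile normalization. Aifm1, the anchor of Chchd4, had -0.02 in the first scaling and was lower after quantile normalization, at -0.40 (adjusted p = 0.024). Dnaja3, a matrix J-domain protein, was the gene higher in both, at 0.39 (adjusted p = 0.0295) and 0.39 (adjusted p = 0.0439). The MICOS subunits Micos10 and Micos13 were higher at 0.80 (adjusted p = 0.00452) and 0.45 (adjusted p = 0.0238), and Apoo and Apool did not pass at 0.26 and 0.30. The Micos10 probe had no value on control array 2, the gene's second probe gave 0.45, or -0.03 after quantile normalization, and on the authors' processed values Micos10 was at -0.06 (adjusted p = 0.771). A second Apoo probe was higher at 0.43 (adjusted p over probes = 0.0292). Opa1, the cristae GTPase, was higher at 0.55 (adjusted p = 0.0073), but its second probe had -0.16 (adjusted p over probes = 0.642). Gfer, which reoxidises Chchd4, was higher at 0.46 (adjusted p = 0.0293), but its second probe was lower at -0.82 (adjusted p over probes = 0.00434).

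The RefSeq promoter table, which spans 250 bases before to 50 after each start site on build GRCm38.p6, held 37 of the 41 members. The table had no entry for Hspa9, Timm21, Tomm40l and Tomm7. Both strands were searched for 4 motifs, each spelled out here. The ETS letters CCGGAAG were in 18 of the 37 (48.6%), against 9.93% of all 27025 genes in the table and 12.9% of the protein-coding ones. The ERR motif AAGGTCA was in 6 (16.2%), against 5.38% and 4.73%. The NRF1 core CGCATGCG was in 1, Timm13 (2.70%, against 2.07% of all genes and 2.77% of the protein-coding ones), and the YY1 letters AAGATGGC were in 2, Mtx1 and Timm50 (5.41%, against 3.19% and 3.57%). These are matches of letters and not sites of binding. The 6 genes with the ERR motif were Chchd6, Hspd1, Hspe1, Timm23, Timm44 and Timm8b, and Hspd1 and Hspe1 share one occurrence. The promoters of 3 of them are shown because these genes differed in their calls. Timm8b had the highest fold change of the 6, and Chchd6 and Timm44 did not pass. The motif is in capitals, with the ETS match of Timm8b, for 120 bases before the Timm8b start (chr9:50603781-50603900, plus strand), 117 bases around the match of Chchd6 (chr6:89595762-89595878, minus strand) and 70 bases that end 10 past the Timm44 start (chr8:4275896-4275965, minus strand):
Timm8b: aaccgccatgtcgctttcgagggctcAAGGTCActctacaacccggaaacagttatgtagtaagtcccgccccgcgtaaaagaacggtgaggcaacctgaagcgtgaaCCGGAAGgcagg
Chchd6: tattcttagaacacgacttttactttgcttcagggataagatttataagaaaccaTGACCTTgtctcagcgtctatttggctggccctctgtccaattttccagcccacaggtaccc
Timm44: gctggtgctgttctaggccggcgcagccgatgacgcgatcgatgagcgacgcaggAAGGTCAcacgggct
The motif lay 94 bases before the start of Timm8b, 171 before that of Chchd6, where it is on the opposite strand, and 5 before that of Timm44. Of the 6 genes, 4 were higher, with a median fold change of 0.53, and among the 30 tested members without the letters 18 were higher, with a median of 0.44. After quantile normalization the medians were 0.01 and 0.09. The 18 tested members with the ETS letters and the 18 without had 11 higher each, with medians of 0.44 and 0.46.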

How the data were processed

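The authors hybridised labelled RNA to Agilent arrays (Cy3 in the labels, Cy5 in the labelling protocol) and deposited 1 scanner file per array, whose processed signal is a linear intensity in the green channel, background-subtracted by the scanner software. A deposited table of log2 values, normalized by the authors in GeneSpring, was used as an alternative. Control and outlier-flagged spots were left out, spots of a probe were averaged, and log2 intensity was scaled to each array's 75th percentile. Probes were named through RefSeq (59.7% of 56605 matched) and tested if either group had every array well above background, with 2 or more values a group. No member spot was saturated. Groups came from the sample labels. limma 3.58.1 in R 4.3.3, tested on simulated data, fitted both groups (two-sided, Benjamini-Hochberg over 17062 genes, or over all tested probes where stated). An exact permutation test of 3 against 3 arrays cannot go below 0.1 and was not used. Members, lists, motifs and ratios were chosen with earlier results of these data known. Values on every array are given for the extremes of each role and for core subunits. Arrays 1 and 2 of either group shared a slide. The number of arrays limits precision. Alternatives were scaling, background correction, dim-probe filter, probe choice, slide and replicate as blocks, variance model and leaving out each array.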

Additional observations from a re-analysis of the deposited data

How the results depend on the processing

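Most calls were lost after quantile normalization and on the authors' processed values, but not with every change of scale. Members called higher numbered 24 with 75th percentile scaling, 22 with normexp before it and 17 with the median as the scale. They numbered 26 with the other variance model. After quantile normalization they numbered 2, with normexp and quantile normalization 1 (Timm21), and on the authors' processed values 2. In these last 3 settings all genes called higher numbered 3700, 2921 and 3960. Same-numbered arrays correlated at -0.16, 0.07 and 0.60 in their deviations from group means, and differently numbered ones at -0.51 to 0.50. The 0.60 belongs to the 2 arrays of the second slide, where number and slide cannot be told apart. These correlations therefore cannot decide whether the numbers mark paired cultures. With the slide as a block the count was 26, Mtx2 and Tomm7 being added. All genes called higher rose as well, from 6290 to 7227 of 17062, and to 6989 with the replicate block. With the replicate block the count was 24, with Immt lost and Tomm7 added, and with quantile normalization and the replicate block, added after seeing the data, 2, so the block moved neither by over 1.5 times, and quantile normalization within the first slide, also added later, gave 0 higher and 1 lower. In the fits that left out 1 array the count was 16 to 23, while all genes called higher numbered 4706 to 6759. Members called lower numbered 1 (Tomm40l), and 2 without a filter on dim probes or without control replicate 2, where Tomm20l was tested and lower. Tomm20l cleared background on 2 controls and no PGC-1α array. Without control replicate 2 it therefore passed only through the control group, and that call was partly set by the filter. The call without a filter rests on values near background. On the authors' values the number was 2, as Mtx1 was lower, and the range over left-out arrays was 1 to 2. The median of members relative to all genes, 0.22, became 0.034 after quantile normalization, 0.11 with normexp and 75th percentile scaling, 0.015 with normexp and quantile normalization, 0.10 without the filter, 0.25 with the mean of a gene's probes, 0.014 on the authors' values, 0.11 within the second slide, and 0.033 and 0.011 in the 2 added quantile settings, with 0.18 to 0.27 over left-out arrays; it was 0.24 within the first slide. Of 24 members higher, 12 kept the call in all 6 fits that left out 1 array, Tomm6 kept it in the 4 that tested it, and 11 lost it at least once. Timm10b lost it in all 6 (0.30 to 0.38), Timm13, Timm21 and Tomm5 in 3, Dnajc19, Immt, Timm23 and Tomm22 in 2, and Pam16, Samm50 (both without control replicate 3) and Timm8a1 (without control replicate 1) in 1. Signs turned for 16 members, among them Dnajc19, Hspe1, Immt, Pmpcb, Timm13 and Tomm22, which were called higher with 75th percentile scaling. After quantile normalization Grpel1, Hspe1, Mtx1, Timm44, Timm50, Timm9, Tomm22, Tomm34 and Tomm7 had -0.23, -0.0084, -0.31, -0.23, -0.18, -0.14, -0.033, -0.083 and -0.063. With normexp and quantile normalization Grpel1, Immt, Mtx1, Timm44, Timm50, Timm9, Tomm22, Tomm34 and Tomm7 had -0.058, -0.021, -0.29, -0.096, -0.13, -0.11, -0.095, -0.11 and -0.023. On the authors' processed log2 values Dnajc19, Grpel1, Hspe1, Mtx1, Pmpcb, Timm13, Timm44, Timm50, Timm9, Tomm22 and Tomm34 had -0.0071, -0.25, -0.040, -0.33, -0.014, -0.0088, -0.25, -0.20, -0.16, -0.057 and -0.10. With the median as the scale Grpel1, Mtx1 and Timm29 had -0.0030, -0.088 and -0.0045. Mtx1 had -1.8e-05 with normexp and 75th percentile scaling and -0.027 with the mean of its probes. Over left-out arrays Chchd4 ran from -0.12 to 0.031, Chchd6 ran from -0.29 to 0.020, Mtx1 ran from -0.072 to 0.080 and Timm50 ran from -0.020 to 0.35. The cause of these changes was not tested. Signal over background limits Tomm20l, Tomm6os, Timm8a2 and Ppargc1a.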
